A study of Mus musculus with 4 samples.

Results

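Heat shock proteins and their partner chaperones were followed in RNA of activated lung group 2 innate lymphoid cells (ILC2s) from wild-type and ICAM-1 deficient mice. The members were the protein-coding genes whose symbol begins with Hspa, Hspb, Hspd, Hspe, Hsph or Hsp90, with Dnaja, Dnajb or Dnajc, or with Cct, each followed by its number, after 5 genes of the endoplasmic reticulum (Hspa5, Hsp90b1, Dnajb9, Dnajb11 and Dnajc3) were set aside. This rule used names alone and gave 67 of the 22558 genes in the count table. By family these were 13 HSP70 and HSP110 genes, 2 HSP90 genes, 5 small heat shock protein genes, 7 genes of the CCT chaperonin, the pair Hspd1 and Hspe1, and 4 DNAJA, 10 DNAJB and 24 DNAJC genes. Although most of the encoded proteins work in the cytosol, the rule also takes in mitochondrial chaperones such as Hspa9, Hspd1 and Hspe1 and a few DNAJC proteins of the endoplasmic reticulum, such as Dnajc10.

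All 4 libraries came from 6 week old mice on the C57BL/6 background that received 0.5 µg of rmIL-33 intranasally 3 times, so both groups were exposed to IL-33 and no unchallenged group was sequenced. There were 2 libraries of wild-type mice (WT) and 2 of mice labelled ICAM-1 KO, a constitutive knockout that is not limited to ILC2s. On day 4 the lungs were digested with collagenase, and CD45+ Lin- ST2+ CD127+ cells were sorted. Each library was a pool of 4 mice, so the spread between 2 libraries of a group does not show the spread between animals.

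Molecular chaperones bind proteins that are not yet folded or have lost their fold. HSP70 proteins bind short exposed stretches in cycles of ATP hydrolysis, J-domain proteins (DNAJA, DNAJB and DNAJC) bring them their clients and start that hydrolysis, HSP110 proteins exchange the nucleotide, and HSP90 takes over clients such as kinases and steroid receptors. The CCT complex, also called TRiC, is a barrel that folds actin and tubulin in the cytosol, while Hspd1 (HSP60) and its lid Hspe1 (HSP10) form the barrel of the mitochondrial matrix. In stressed cells heat shock factor 1 binds heat shock elements, repeats of the unit GAA on alternating strands, before a subset of these genes.

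Icam1, the targeted gene, was read first. Its normalized counts were 85.2 and 83.3 in the WT libraries against 97.6 and 110 under the ICAM-1 KO label (84.2 ± 1.32 and 104 ± 8.77, SD, n = 2 each). Its RNA was therefore not lower under the KO label (log2 fold change 0.33 ± 0.108 SE, adjusted p = 0.0745 by the quasi-likelihood test of edgeR, Benjamini-Hochberg adjusted), and which part of the gene these counts cover was not tested. For this reason the second group is named by its label throughout (libraries labelled ICAM-1 KO, or under the KO label). The paper reports, from flow cytometry of activated lung ILC2s, that its knockout mice lack ICAM-1 protein, which RNA counts do not measure. Library totals lay between 24796148 and 28782471 counts. The correlation of depth-scaled log2 counts across genes was 0.966 within WT, 0.969 within the KO label and 0.93 to 0.938 between the groups. The 12 ILC2 markers were all tested and summed to 7934 and 8376 normalized counts in WT against 6349 and 6543 under the KO label. Il5, Il13, Arg1, Id2 and Il2ra (5) were called lower under the KO label and Klrg1 (1) was called higher. Il1rl1 (means 677 in WT and 767 under the KO label), Il7r (252 and 301), Gata3, Rora, Areg and Thy1 were not called. By log2 fold change 4 of the 12 were positive and 8 negative.

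Markers of other cell types were also read, since they moved with the label. The 10 endothelial markers summed to 153 and 162 normalized counts in WT and to 402 and 418 under the KO label, and 10 of 10 were called higher. The macrophage and monocyte markers summed to 474 and 683 against 1591 and 2224, with 8 of 9 tested called higher. Chil3 alone gave 211 and 423 of the WT sums and 1052 and 1423 of those under the KO label. The paper cites Chil3 as expressed by a subset of lung ILC2s that makes IL-10. Lung epithelial markers ranged over 422 and 191 against 542 and 1367 (4 of 8 called higher). Scgb1a1, not called, gave 338 and 142 of these sums in WT and 123 and 510 under the KO label. Called were Sftpa1, Sftpb, Sftpd and Sftpc (24.2 and 0.57 against 253 and 537). B cell markers ranged over 166 and 151 against 322 and 257 (5 of 6 called higher), and T cell markers over 291 and 380 against 597 and 734 (4 of 7). Eosinophil and neutrophil markers summed to 146 and 117 against 157 and 135 (4 higher and 2 lower of 6), sums that hide opposite moves. Epx (33.9 and 23.4 against 0.0347 and 0.0319) and Prg2 (52.3 and 33 against 1.18 and 3.79) were called lower. Ccr3, Csf3r, S100a8 and S100a9 were called higher. Of the fibroblast and smooth muscle markers 0 of 4 were called, with 1 at an unadjusted p under 0.05 and 0 by DESeq2, and of the ciliated cell markers 0 of 1, with 0 at an unadjusted p under 0.05 and 0 by DESeq2. The gate took CD45+ cells, which lung endothelial and epithelial cells are not, and its lineage antibodies include those against T cells, B cells and CD11b. The paper reports a high purity for the sorted ILC2s that were sequenced. No marker in these lists was at 0 in all 4 libraries. Chaperones are made in every cell type, fewer ILC2s and less RNA per ILC2 cannot be told apart in such bulk samples, and the part of other cells in the values given here was not tested.

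The promoters of Hspa1a and Hspa1b are shown first. Hspa1a and Hspa1b encode the same inducible HSP70, and their starts lie 12.9 kb apart (chr17:34969190-34972156 and chr17:34956436-34959238, minus strand, mm10). Of the 300 bases from 250 before to 50 after the RefSeq start, 296 were identical. The last 180 bases before each start are printed 5′ to 3′, with capitals for a heat shock element of 2 units, GAANNTTC, which begins 104 bases before the start in both. They are shown because these were the members with the largest fold changes.
Hspa1a (GRCm38.p6, chr17:34972157-34972336, minus strand): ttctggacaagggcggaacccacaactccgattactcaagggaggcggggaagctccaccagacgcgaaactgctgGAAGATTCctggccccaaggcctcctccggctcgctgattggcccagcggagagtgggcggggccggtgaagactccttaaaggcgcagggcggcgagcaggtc
Hspa1b (GRCm38.p6, chr17:34959239-34959418, minus strand): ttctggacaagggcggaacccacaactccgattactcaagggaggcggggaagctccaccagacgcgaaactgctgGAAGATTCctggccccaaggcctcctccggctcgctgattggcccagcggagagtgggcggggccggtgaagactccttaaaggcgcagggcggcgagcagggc

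The same motif stood in 1 of the annotated promoters of Dnaja1 and of Cct2, a member that rose and a member that fell (100 bases each). The RefSeq start of Hspe1 and 1 of those of Hspd1 lie head to head, and between them 30 bases are printed around a run of 4 alternating units. They are shown so that promoters of genes called in both directions can be read side by side.
Dnaja1 (GRCm38.p6, chr4:40722303-40722402, plus strand): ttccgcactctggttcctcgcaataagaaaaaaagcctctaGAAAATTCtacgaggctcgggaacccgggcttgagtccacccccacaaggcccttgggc
Cct2 (GRCm38.p6, chr10:117063376-117063475, minus strand): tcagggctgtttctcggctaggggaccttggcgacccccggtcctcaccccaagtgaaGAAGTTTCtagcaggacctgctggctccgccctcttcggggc
Hspe1 and Hspd1 (GRCm38.p6, chr1:55088053-55088082, plus strand): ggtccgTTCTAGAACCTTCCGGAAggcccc

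Of the 67 members 55 had a RefSeq promoter window, and both strands were searched. Hsp90ab1, Hspa8, Hsp90aa1, Hspa9 and Cct4 were among those without a window, so their promoters were not searched. GAANNTTC was found for 13 of 55 members (23.6%) against 9.04% of the 27025 genes with a window. The longer GAANNTTCNNGAA, which contains the shorter motif, was found for 4 members, Dnajb6, Hspd1, Hspe1 and Hsph1 (7.27% against 0.662%). Members were counted separately, although Hspd1 and Hspe1 hold the same site in overlapping windows and Hspa1a and Hspa1b have nearly identical promoters. CCAAT was found for 40% of members and 41.1% of genes, and TATAAA for 5.45% and 15.7%. By call, GAANNTTC stood in a window, before or just after the start, of 3 of the 6 members that rose (Dnaja1, Hspa1a and Hspa1b), 3 of the 7 that fell (Cct2, Hspd1 and Hspe1) and 6 of the 33 others with a window among those tested. The motif was thus present on both sides, and a match in a window is a description of its letters only.

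Levels between genes were compared as normalized counts per kb of exon, over the union of all annotated exons. Hsp90ab1, the constitutive cytosolic HSP90, had the highest level per kb (630 in WT and 556 under the KO label, means of 2 libraries). It was followed by Hspa8, the constitutive cytosolic HSP70 (514 and 399), by Hsp90aa1, the stress-responsive HSP90 (235 and 209), and by the CCT subunit Cct5 (220 and 178). The library values of Hsp90aa1 and Cct5 are close, and their order was not tested. Hspd1 (196 and 140), Cct8 (182 and 145) and Hspe1 (133 and 92.4) came next. The inducible pair was far lower. Hspa1a and Hspa1b together gave 4.31 and 3.41 normalized counts per kb in WT and 19.2 and 18.6 under the KO label. That was 0.844% and 0.659% of the Hspa8 level in the WT libraries and 4.34% and 5.22% of it under the KO label. Constitutive HSP70 RNA therefore exceeded the inducible form in every library, by 119-fold and 152-fold in WT and by 23.1-fold and 19.1-fold under the KO label. All members together held 1.33% and 1.34% of the counts in WT and 1.26% and 1.14% under the KO label.

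**Figure D1:**
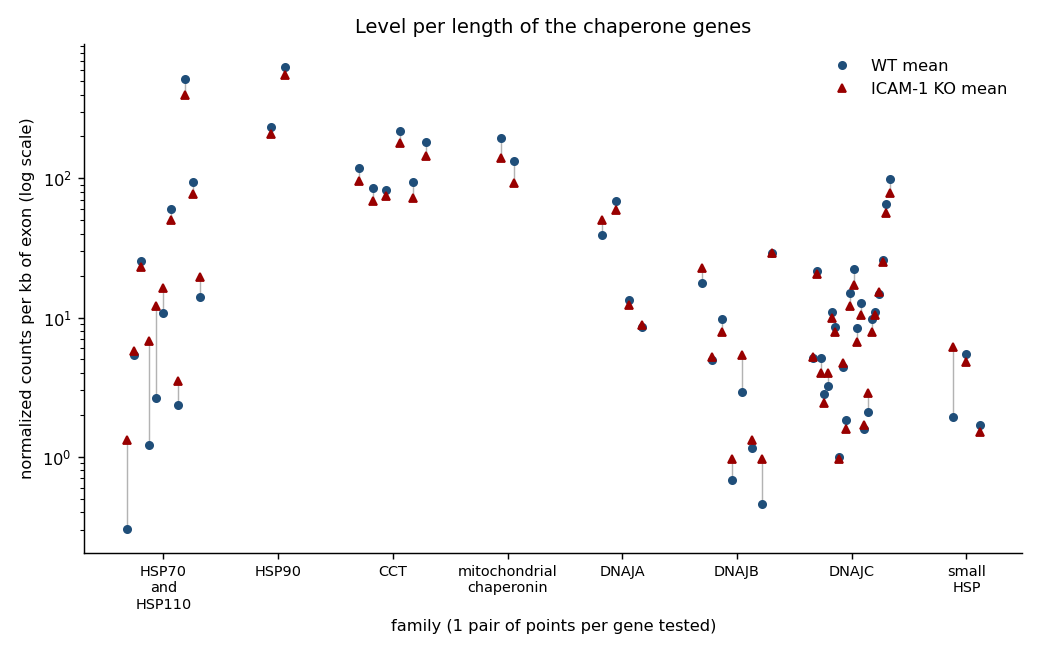
Mean normalized counts per kb of exon (log scale) of the 58 members tested, by family, with 1 pair of points joined by a line for each gene (circle WT mean, triangle mean of the libraries labelled ICAM-1 KO, n = 2 each). Hsp90ab1 at 630 and 556 and Hspa8 at 514 and 399 stand at the top, and the longest upward lines belong to Hspa12b, Hspa1a and Hspa1b in the HSP70 family.

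The genotype comparison was fitted on 11711 genes, 58 of them members. The members moved in both directions. Hspa1a, Hspa1b, Hspa12b, Hspa4l, Dnajb2 and Dnaja1 were higher under the ICAM-1 KO label than in WT, and Hspd1, Hspe1, Cct7, Cct8, Cct3, Cct2 and Dnajc9 were lower (adjusted p under 0.05 by edgeR's quasi-likelihood test). The 6 higher members were 10.3% of those tested, near the 8.8% of all genes called higher. The 7 lower members were 12.1%, against 4.97% of all genes. The other 45 did not pass. At least 2-fold changes were called for 3 members upward (5.17%, against 4.94% of all genes) and for 0 downward (0.538% of all genes), where 0 were at an unadjusted p under 0.05 and 0 were called by DESeq2. Hspa12b, among the 3, met the filter on low counts only through its values under the KO label. The libraries did not overlap in 14 members that were higher (24.1%, against 28.3% of all genes) and in 27 that were lower (46.6%, against 31.3%). The median log2 fold change was -0.10 over the members and 0.01 over all genes tested, with 23 members above 0 and 35 below. These counts rest on all 4 libraries. With no filter on low counts Hspa1a, Hspa1b, Hspd1 and Cct7 alone were called. With edgeR's older quasi-likelihood method Cct2, Cct3, Cct8 and Dnajc9 were lost, and Cct2 was also lost among genes with at least 10 counts in every library. DESeq2 kept all 13 and added Cct5, Dnajb1, Hspa4, Hspa8, Hspa9, Hspb1 and Hsph1 as well as Dnajc2 and Hspa2, which are named here after their values were seen. Without WT replicate 1 there were 2 higher and 2 lower, without WT replicate 2 there were 2 and 0 (9 lower at an unadjusted p under 0.05), without ICAM-1 KO replicate 1 there were 5 and 3, and without ICAM-1 KO replicate 2 there were 6 and 3.

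**Figure D2:**
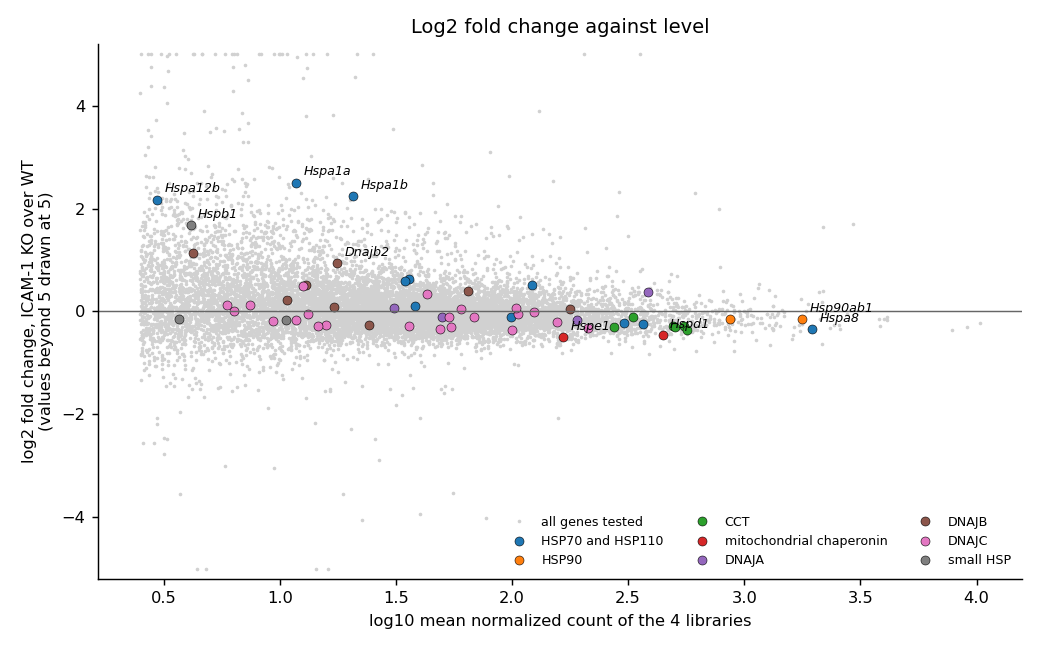
Log2 fold change (libraries labelled ICAM-1 KO over WT) against the log10 mean normalized count of the 4 libraries for the 11711 genes tested (grey) and the 58 members (coloured by family), with values beyond 5 drawn at 5. Hspa1a at 2.50, Hspa1b at 2.24 and Hspa12b at 2.17 lie highest among the members, while the CCT genes, Hspd1 and Hspe1 lie below 0 at high levels.

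Hspa1a and Hspa1b, the inducible cytosolic HSP70 genes, had the largest fold changes of the members. Hspa1a had 3.90 and 3.34 normalized counts in the WT libraries and 20.9 and 19.0 under the KO label. Hspa1b had 8.40 and 6.41 against 34.1 and 34.1. In both genes the libraries labelled ICAM-1 KO were several times above both WT libraries, with a gap far wider than the spread within a group. Hspa1a rose by 2.50 on the log2 scale (SE 0.264, adjusted p = 0.0011 by edgeR's quasi-likelihood test) and Hspa1b by 2.24 (SE 0.207, adjusted p = 0.000634). The share of Hspa1a in the counts of the pair was 31.6% and 34.1% in WT and 38.0% and 35.8% under the KO label. Since 58.8% of the 50-base windows of the Hspa1a transcript also occur in Hspa1b, reads cannot be fully assigned between them, and counted as 1 gene the pair rose by 2.33 (adjusted p = 0.000179). None of these windows occurs in Hspa8. Both genes stayed called with any 1 library left out, with log2 fold changes of 2.39 to 2.62 for Hspa1a and 2.05 to 2.45 for Hspa1b. Hspa1a has an exon that overlaps Gm20481 on the other strand, and with this kit reads of both strands cannot be told apart.

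The other HSP70 and HSP110 genes went both ways. Hspa12b, a distant HSP70 relative known from endothelial cells, had 0.792 and 1.42 normalized counts in WT and 4.82 and 4.84 under the KO label. It was low in every library but did not overlap between groups. At its WT mean of 1.11 in every library it would have missed the filter's sum of at least 10. Hspa12b was thus tested only because of its values under the KO label. It rose by 2.17 on the log2 scale (SE 0.464, adjusted p = 0.0181), and the call was lost without WT replicate 1 (adjusted p = 0.0842) or WT replicate 2 (adjusted p = 0.0525) and with no filter on low counts (adjusted p = 0.0609), while with limma on log2 of the normalized count plus 1 the log2 fold change was 1.48. The endothelial markers rose in the same libraries, as given above, and their part in Hspa12b was not tested. Hspa4l, an HSP110 relative that acts as a nucleotide exchange factor, had 27.9 and 28.0 against 42.6 and 40.0, and both libraries labelled ICAM-1 KO were above both WT libraries. It rose by 0.59 (SE 0.140, adjusted p = 0.0268), a call that was lost with any 1 library left out (adjusted p from 0.0566 to 0.0993). Hsph1, the main HSP110 of the cytosol, had 101 and 102 against 173 and 111. Its high value came from ICAM-1 KO replicate 1 alone, and the log2 fold change of 0.50 (SE 0.173, adjusted p = 0.086) was 0.16 without that library and 0.78 without ICAM-1 KO replicate 2 (adjusted p = 0.000185).

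The abundant constitutive HSP70 genes had negative log2 fold changes and did not pass the test. Hspa8 had 2198 and 2226 normalized counts in WT and 1908 and 1528 under the KO label, where ICAM-1 KO replicate 2 was the lowest. Its log2 fold change of -0.34 (SE 0.107, adjusted p = 0.0672) was -0.20 without ICAM-1 KO replicate 2 and -0.50 without ICAM-1 KO replicate 1, where it passed (adjusted p = 0.0117). It also passed with the replicate block (adjusted p = 0.0187), limma (adjusted p = 0.0464) and DESeq2 (adjusted p = 0.00636), and the adjusted p ranged from 0.00636 to 0.105 over the alternatives with all libraries. Snord14c, Snord14d and Snord14e lie within exons of Hspa8 and can share its reads. Hspa4, another HSP110 family exchange factor, had 332 and 330 against 270 and 283, and Hspa9, the HSP70 of the mitochondrial matrix, had 382 and 423 against 336 and 328. Neither group pair overlapped, and neither gene passed (log2 fold change -0.23, adjusted p = 0.0938 for Hspa4, and -0.25, adjusted p = 0.0878 for Hspa9). In the family as a whole 4 of 11 genes tested were called higher and 0 lower, with 3 lower at an unadjusted p under 0.05 and 3 by DESeq2. Of all genes tested 8.8% were called higher and 4.97% lower.

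**Figure D3:**
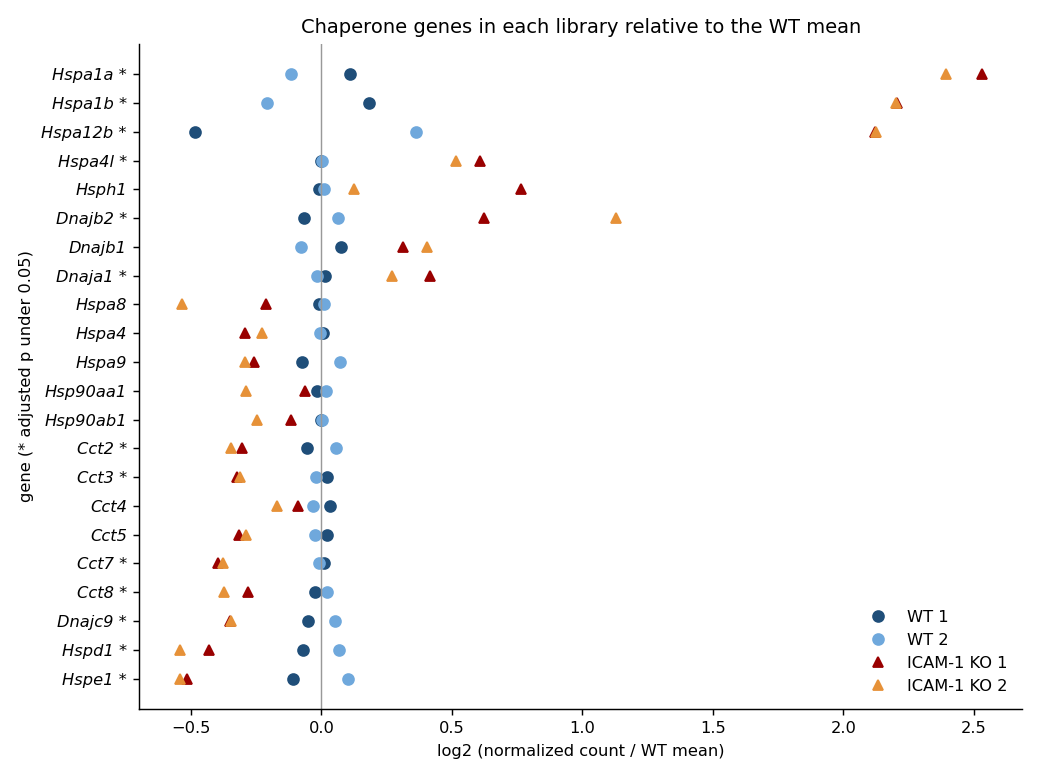
Normalized count of 22 chaperone genes in each library, as log2 of its ratio to the WT mean (circles WT, triangles libraries labelled ICAM-1 KO; an asterisk marks an adjusted p under 0.05). Hspa1a, Hspa1b and Hspa12b stand apart to the right, Hsph1 differs between the 2 KO-labelled libraries, and both KO-labelled libraries lie to the left of both WT libraries for Hspd1, Hspe1 and the CCT genes drawn.

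Neither HSP90 gene passed the test. Hsp90aa1 had 913 and 934 normalized counts in WT and 885 and 756 under the KO label, and Hsp90ab1 had 1885 and 1894 against 1742 and 1593. In both genes each library labelled ICAM-1 KO was below each WT library, and ICAM-1 KO replicate 2 was the lower one. The log2 fold changes were -0.14 (SE 0.092, adjusted p = 0.327) and -0.15 (SE 0.0839, adjusted p = 0.255). Without ICAM-1 KO replicate 2 that of Hsp90aa1 was -0.05. Among the 2 genes, 0 were at an unadjusted p under 0.05 and 0 were called by DESeq2.

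The mitochondrial chaperonin fell. Hspd1, which encodes HSP60, had 494 and 544 normalized counts in WT and 385 and 356 under the KO label. Hspe1, which encodes the HSP10 lid, had 182 and 211 against 137 and 135. In both genes each library labelled ICAM-1 KO was below each WT library. Hspd1 fell by 0.46 on the log2 scale (SE 0.088, adjusted p = 0.0121 by edgeR's quasi-likelihood test) and Hspe1 fell by 0.50 (SE 0.100, adjusted p = 0.0141). On the linear scale the means were 28.6% and 30.7% lower. Without WT replicate 2 the adjusted p was 0.0764 for Hspd1 and 0.0773 for Hspe1, with log2 fold changes of -0.39 for both. Their exons overlap on opposite strands at the shared start, and reads there cannot be told apart by strand. A processed pseudogene of Hspd1, Hspd1-ps3, had 18.5 and 19.7 normalized counts in WT and 13.5 and 12.0 under the KO label (log2 fold change -0.56, adjusted p = 0.0994).

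Of the cytosolic chaperonin 4 of the 6 subunit genes tested within the rule fell. All 6 CCT genes tested were lower in each library labelled ICAM-1 KO than in each WT library, 4 passed the test, and their median log2 fold change was -0.30. Over all genes tested, 31.3% were lower without overlap of the libraries and 4.97% were called lower. Cct7 had 647 and 638 normalized counts in WT and 488 and 495 under the KO label, and it fell by 0.36 (SE 0.0788, adjusted p = 0.0196). Cct8 had 554 and 571 against 463 and 434 and fell by 0.30 (SE 0.0809, adjusted p = 0.0409). Cct3 had 553 and 537 against 435 and 438 and fell by 0.29 (SE 0.0793, adjusted p = 0.0418). These are subunits of 1 ring, and differences between subunits were not tested. Cct2 had 293 and 316 against 247 and 239 and fell by 0.30 (SE 0.0855, adjusted p = 0.0488). Cct5 had 618 and 599 against 489 and 499, with a log2 fold change of -0.28 (SE 0.0796) and an adjusted p of 0.051. It passed under 5 of 8 alternatives, among them TMM factors (adjusted p = 0.0429) and the replicate block (adjusted p = 0.0352), and the adjusted p ranged from 0.00682 to 0.0616 over the 8. Cct4 had 354 and 338 against 325 and 307 and was closest to its WT level (log2 fold change -0.10, SE 0.0827, adjusted p = 0.437). Of the 4 called subunits Cct7 alone passed with a library left out, and only without ICAM-1 KO replicate 2 (adjusted p = 0.0424). Exons of Cct7 overlap Pradc1 and those of Cct8 overlap Usp16 on the other strand.

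A pair of CCT subunits stood outside the rule. Tcp1, the alpha subunit, had 549 and 556 normalized counts in WT and 414 and 401 under the KO label, and it fell by 0.41 (SE 0.0787, adjusted p = 0.012). Cct6a, the zeta subunit, which the table lists as a processed transcript and not as protein-coding, had 522 and 540 against 425 and 428 (log2 fold change -0.29, SE 0.0795, adjusted p = 0.044). Counted from the WT mean, Tcp1 was at 74.9% and 72.6%, Cct6a at 80.1% and 80.7%, and Cct4 at 93.9% and 88.8% under the KO label. Cct6b, a testis form of the zeta subunit, had under 1 normalized count on average and was not tested.

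**Figure D4:**
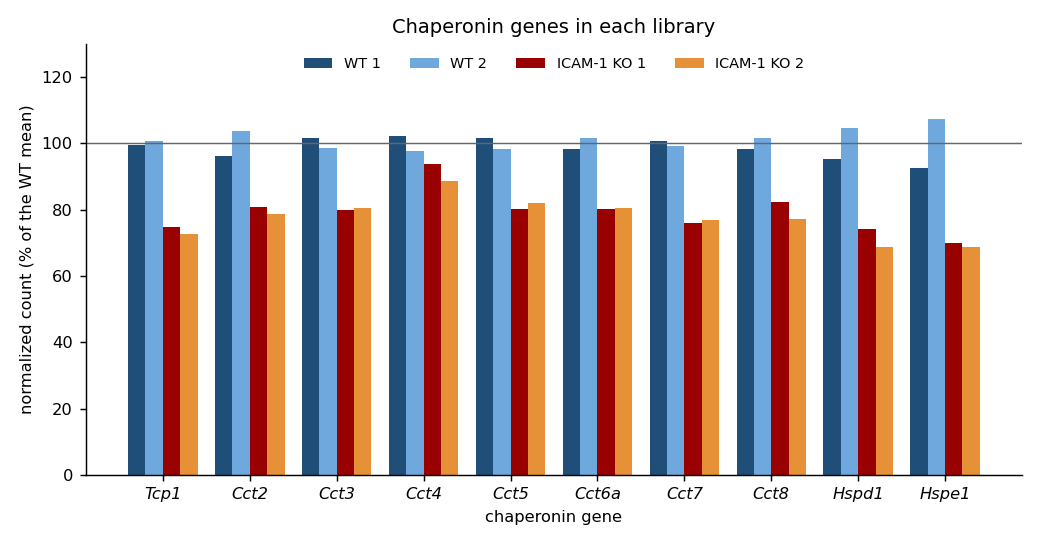
Normalized counts of the 8 CCT subunit genes and of Hspd1 and Hspe1 in each library, as a percent of the WT mean (bars from 0, 1 bar a library, no error bars). The bars of both libraries labelled ICAM-1 KO are below those of both WT libraries in all 10 genes, with Cct4 the nearest to 100% at 93.9% and 88.8%.

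Of the J-domain proteins 1 DNAJA and 1 DNAJB gene rose and 1 DNAJC gene fell. Dnaja1, a farnesylated cochaperone of Hspa8, had 344 and 336 normalized counts in WT and 453 and 411 under the KO label, above both WT libraries. It rose by 0.37 (SE 0.0847, adjusted p = 0.023), and it was lost with 3 of the 4 libraries left out in turn, passing only without ICAM-1 KO replicate 2. Exons of Dnaja1 overlap those of Smu1 and Gm6297 on the other strand and Mir207 on its own. Dnajb2, which brings ubiquitinated clients to the proteasome, had 11.8 and 12.9 against 19.0 and 27.0 and rose by 0.93 (SE 0.235, adjusted p = 0.0338). Its highest library was ICAM-1 KO replicate 2, and without it the log2 fold change was 0.64 (adjusted p = 0.194). The adjusted p was also 0.126 without WT replicate 1 and 0.0964 without WT replicate 2. Dnajb1, the heat-inducible HSP40, had 59.9 and 53.9 against 70.7 and 75.2, with groups that did not overlap and no call (log2 fold change 0.39, SE 0.117, adjusted p = 0.0592). Dnajc9, a chaperone of histones H3 and H4, had 228 and 245 against 186 and 186 and fell by 0.32 (SE 0.0873, adjusted p = 0.0417), a call that was lost with any 1 library left out.

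The J-domain genes with the highest levels per kb apart from these did not pass. Dnaja2, a close relative of Dnaja1, had 187 and 220 normalized counts in WT and 182 and 172 under the KO label (log2 fold change -0.17, adjusted p = 0.289), and Dnaja3, the mitochondrial form, had 58.3 and 46.3 against 49.4 and 46.4, with overlapping groups (-0.10, adjusted p = 0.689). Dnajb6, known for holding back aggregates, had 173 and 180 against 170 and 185 (log2 fold change 0.04, adjusted p = 0.822), and Dnajb13, known from sperm tails and cilia, had 27.2 and 25.9 against 19.3 and 24.0 (-0.26, adjusted p = 0.367). Exons of Dnajb13 overlap Ucp2 on the other strand, and reads there cannot be told apart by strand. Dnajc8, tied to splicing, had 159 and 176 against 135 and 151 (log2 fold change -0.20, adjusted p = 0.234), and Dnajc7, which binds both HSP70 and HSP90, had 131 and 120 against 128 and 118 (-0.01, adjusted p = 0.977). The 21 DNAJC genes without a call ran from -0.36 to 0.49 on the log2 scale, with a lowest adjusted p of 0.0593. In the DNAJB family 7 of 8 genes tested were above 0 (median 0.30), while in the DNAJC family 16 of 22 were below 0 (median -0.11). Over all genes tested 5999 were above 0 and 5712 below, and 1 gene of each of these families was called.

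The small heat shock proteins, which hold unfolded proteins without using ATP, were low. Hspb1 (HSP25), an inducible one, had 1.23 and 2.75 normalized counts in WT and 8.21 and 4.39 under the KO label. At its WT mean of 1.99 in every library Hspb1 too would have missed the filter's sum of at least 10. The groups did not overlap but spread widely, and the log2 fold change of 1.68 (SE 0.498) had an adjusted p of 0.055. It was 1.18 without ICAM-1 KO replicate 1, 2.07 without ICAM-1 KO replicate 2 (adjusted p = 0.00963), 1.22 without WT replicate 1 and 2.41 without WT replicate 2. Hspb6 had 4.66 and 3.17 against 4.13 and 2.86, and Hspb11, which despite its name is part of the ciliary transport machinery, had 10.3 and 12.4 against 8.64 and 11.2. Both overlapped between groups (log2 fold change -0.14, adjusted p = 0.851, and -0.16, adjusted p = 0.726). Of the 3 genes 0 were called, with 1 at an unadjusted p under 0.05 and 1 by DESeq2.

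The other 9 members were too low to be tested: Cct6b, Dnajb3, Dnajb7, Dnajc6, Dnajc28, Hspa1l, Hspa12a, Hspb8 and Hspb9. Hspb8 had 40 counts in ICAM-1 KO replicate 1 and 0 in the other libraries.

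Genes that work with the chaperones were read from lists, by role. Of the heat shock factors and their regulators 3 of 6 were tested and 0 were called, with 0 at an unadjusted p under 0.05 and 0 by DESeq2. Hsf1, the main heat shock factor, had 67.7 and 69.2 normalized counts in WT and 64.0 and 62.2 under the KO label (log2 fold change -0.09, SE 0.108, adjusted p = 0.621). Of the 13 HSP70 cochaperones and exchange factors 0 were called, with 3 lower and 0 higher at an unadjusted p under 0.05 and 1 lower by DESeq2 (median log2 fold change -0.06). Of the 20 HSP90 cochaperones 1 fell and 0 rose (median -0.10), with 3 higher at an unadjusted p under 0.05 and 1 higher by DESeq2. It was Cdc37, which brings kinases to HSP90, with 287 and 264 against 198 and 215 (log2 fold change -0.39, SE 0.0935, adjusted p = 0.0276). Among the prefoldin and other chaperonin partners 3 of 10 fell and 0 rose (median -0.30), with 0 higher at an unadjusted p under 0.05 and 0 by DESeq2. They were Tcp1 and the prefoldin subunits Pfdn1 (59.4 and 64.5 against 44.8 and 38.5, log2 fold change -0.55, adjusted p = 0.0264) and Pfdn2 (54.7 and 54.1 against 34.2 and 39.6, log2 fold change -0.53, adjusted p = 0.0342), of the complex that hands actin and tubulin to CCT.

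The 5 counterparts of the endoplasmic reticulum all had a positive log2 fold change (median 0.42), and 3 of them rose. Hspa5 (BiP), the HSP70 of that compartment, had 1161 and 1058 normalized counts in WT and 1442 and 1471 under the KO label (log2 fold change 0.42, SE 0.0857, adjusted p = 0.0153). Hsp90b1 (GRP94), its HSP90, had 898 and 1046 against 1327 and 1300 (0.46, SE 0.0941, adjusted p = 0.0152), and the J-domain protein Dnajb9 had 16.6 and 14.9 against 24.3 and 26.5 (0.72, SE 0.184, adjusted p = 0.0348). In each of the 3 genes both libraries labelled ICAM-1 KO were above both WT libraries, whereas for Hspa8, Hsp90aa1 and Hsp90ab1 of the cytosol both were below both WT libraries without passing the test. The 3 calls became 0 without WT replicate 1, 1 without WT replicate 2 and 2 without either library labelled ICAM-1 KO, with 3 at an unadjusted p under 0.05 and a positive fold change in each case.

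Stress genes outside the chaperone families were mixed. Among the other heat-inducible or alpha-crystallin genes 4 of 8 tested rose and 0 fell (median 0.53), with 1 lower at an unadjusted p under 0.05 and 1 lower by DESeq2. Among those that rose were Serpinh1, a collagen chaperone (3.73 and 7.0 normalized counts in WT against 13.1 and 14.1 under the KO label, log2 fold change 1.37, adjusted p = 0.0245), the metallothionein Mt1 (34.6 and 46.9 against 57.3 and 68.1, 0.65, adjusted p = 0.0362) and the autophagy receptor Sqstm1 (410 and 419 against 504 and 548, 0.37, adjusted p = 0.0237). Genes known to be induced during tissue digestion were read because the lungs were digested at warm temperature. Of these immediate early genes 3 of 11 rose and 0 fell (median 0.15), with 1 lower at an unadjusted p under 0.05 and 0 lower by DESeq2. They were the antiproliferative gene Btg2 (93.0 and 111 against 308 and 312, log2 fold change 1.63, adjusted p = 0.000131), the transcription factor Egr1 (143 and 128 against 167 and 226, 0.56, adjusted p = 0.0342) and Ier3 (43.4 and 40.3 against 53.4 and 61.9, 0.49, adjusted p = 0.0428). Their sum over the list, 4608 and 3517 against 3727 and 4439 normalized counts, overlapped between groups, and the part of digestion in the chaperone values was not tested. Of the 12 proliferation genes 2 fell and 0 rose (median -0.15), with 1 higher at an unadjusted p under 0.05 and 0 higher by DESeq2. These were the replication genes Pcna (361 and 397 against 285 and 298, log2 fold change -0.35, adjusted p = 0.0337) and Rrm2 (417 and 416 against 323 and 333, -0.32, adjusted p = 0.0342). Over all these lists 10 of 82 genes tested were called higher (12.2%, against 8.8% of all genes) and 6 lower (7.32%, against 4.97%), shares near those of all genes. The counts were 3 and 0 without WT replicate 1, 4 and 0 without WT replicate 2, 12 and 3 without ICAM-1 KO replicate 1 and 6 and 4 without ICAM-1 KO replicate 2. Without either WT library 17 and 15 were lower at an unadjusted p under 0.05.

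**Figure D5:**
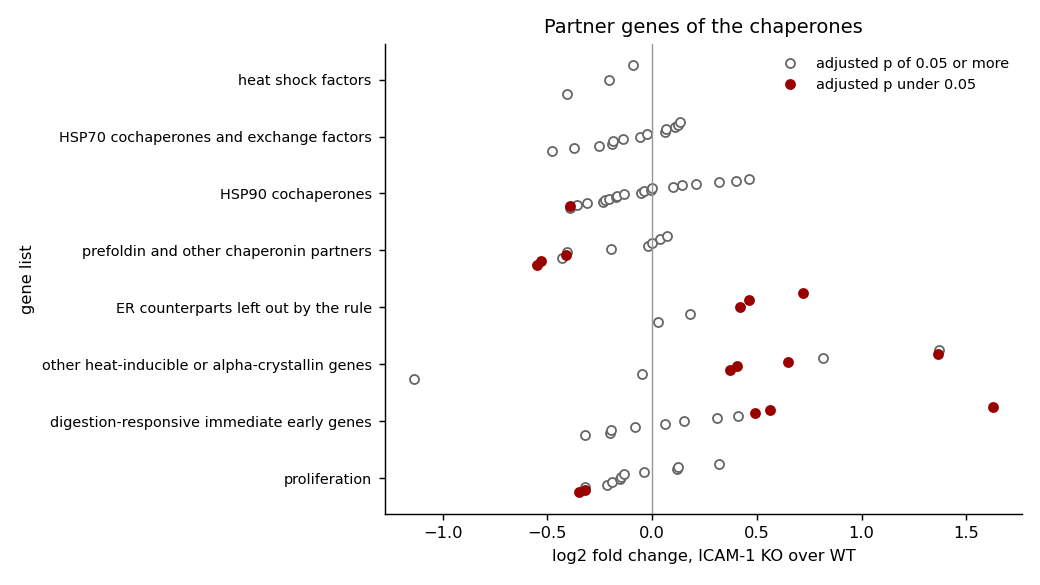
Log2 fold change (libraries labelled ICAM-1 KO over WT) of each tested gene in the 8 partner lists, filled where the adjusted p was under 0.05. The filled points lie above 0 among the endoplasmic reticulum counterparts, the heat-inducible genes and the immediate early genes, and below 0 among the chaperonin partners, the HSP90 cochaperones and the proliferation genes.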

How the data were processed

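RNA sequencing of sorted lung ILC2s covered 2 WT and 2 ICAM-1 KO samples, grouped and numbered by their titles. Nothing states that samples of 1 group are separate experiments, so p-values measure only the spread between these pools of 4 mice. The authors made cDNA from 10 ng of RNA with a SMARTer low-input kit, which does not mark strand, used STAR for alignment to mm10 (GENCODE M20 annotation) and quantified them in Partek (the submitters' notes also name CASAVA 1.8.2). They deposited expected counts per gene for 22558 genes, not normalized, of which 52.3% were whole numbers. They also deposited a normalized signal for 18324 genes, which equals the count plus 1 times 1 factor per library (upper quartile method) and is called normalized count here. Log2 fold changes come from the counts.

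Expected counts were rounded and tested with edgeR 4.0.16 in R 4.3.3 (upper quartile factors, glmQLFit with legacy set to FALSE, no covariate) on 11711 genes, those whose normalized counts averaged at least 1 and summed to at least 10. The p-values were adjusted over all of them by Benjamini-Hochberg, called under 0.05, and SE is the log2 fold change over the root of its F statistic. The filter took all 4 libraries together, so a gene low in 1 group could pass through the other. Alternatives were TMM factors, DESeq2 1.42.0, 3 other filters, the older quasi-likelihood method, limma 3.58.1, a replicate block, leaving out each library, and Hspa1a and Hspa1b summed. Exon lengths, identifiers and overlaps came from GENCODE M21, where 63 of the 67 members have the coordinates of the deposited table and 25 have an exon overlapping another gene. Union exon length includes exons of rare transcripts, so levels per kb are approximate. Promoter windows came from RefSeq on GRCm38.p6, the build called mm10.

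The members, partner lists and marker lists were chosen with earlier results of these data known. Named were a core of heat-inducible and constitutive chaperones, all CCT genes, every member called, the 3 members of each family with the highest level per kb, members not tested, and of the partner lists each gene called plus Tcp1 and Hsf1, except 1 that is not reported here. Cct6a and Hspd1-ps3 were named after their values were seen. The differential analysis named in the paper was not used.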

Additional observations from a re-analysis of the deposited data

How the results depend on the processing

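Only 2 pooled libraries a group limit the precision. Members called higher (6) and lower (7) became 10 and 12 with DESeq2 and 2 and 2 with no filter on low counts, where 22158 genes share the adjustment. The older quasi-likelihood method called 3 lower. Leaving out 1 library, where the lone library left in its group is assumed to vary like the other group, gave 2 to 6 higher and 0 to 3 lower. The number of members called at 2-fold or more (3) was 2 to 4 under the alternatives, and Hspa12b was lost with no filter and without either WT library. The partner list genes called higher (10) became 2 with no filter and 6 with filterByExpr, and 3 to 12 with 1 library left out. Those called lower (6) became 11 with DESeq2, 1 with no filter and 0 to 4 with 1 library left out (0 without either WT library, where 17 and 15 were lower at an unadjusted p under 0.05). The median log2 fold change of the members (-0.10) was -0.15 with no filter, -0.14 with filterByExpr and -0.11 to -0.070 with 1 library left out.

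Same-numbered libraries did not deviate together over all genes (correlation of deviations -0.0582). This gave no sign of pairing by number, and whether same-numbered pools were handled together is not stated. With the replicate block, 6 members were called higher and 9 lower, 3 of them at 2-fold or more, and Cct5 and Hspa8 were the calls gained. The median log2 fold change of the members did not reverse its direction. Nor did any called member, Hspa8, Dnajb1, Hspb1, Hsph1, Cct5, Hsp90aa1 or Hsp90ab1. The other members, the markers and the partner genes were not followed gene by gene under these settings. The cause of the lost and gained calls was not tested.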
